A study of Mus musculus with 8 samples.

Results

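The tumours of the small intestine that form in Apc (Min/+) mice with intact HAI-1 were compared with non-tumour small intestinal mucosa of mice of the same genotype, over every gene that the arrays name. The members were chosen by their labels alone: 2 arrays of control tumours and 2 arrays of control non-tumour mucosa, 4 of the 8 arrays of the series. All mice were C57BL/6 and carried the Min allele of Apc and floxed Spint1 alleles on both chromosomes, written Apc (Min/+)/Spint1 (flox/flox). The control mice lacked Cre and therefore kept Spint1, which encodes HAI-1, a membrane-anchored inhibitor of serine proteases. The other 4 arrays, used here as a second set of tumours and mucosa and in the shared estimate of the spread, came from mice that carried Vil-Cre in addition, a Cre transgene driven in intestinal epithelium by the villin promoter, and are called HAI-1 deficient. All animals lived in a pathogen-free barrier facility on AIN-76 diet, and ages were not given in the sources used here. RNA came from a Trizol extraction followed by a column kit, and one-cycle labelling of 6 ug with biotin preceded hybridisation to Affymetrix arrays. The labels do not say whether arrays of a group came from separate mice, or whether a tumour and a mucosa sample shared a mouse, so p-values measure only the spread between these samples, which may be technical, and precision is limited throughout by how few arrays there were.

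The Min allele truncates Apc, a scaffold of the complex that marks beta-catenin for destruction. Intestinal adenomas form in these mice where the remaining normal allele is lost, and stabilised beta-catenin then acts with T-cell factors on the genes of the Wnt response. In normal epithelium that response is limited to the base of the crypts, where stem cells and dividing cells lie, while cells that absorb nutrients line the villi.

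Values are deposited log2 signals, 1 per probe set and array, and a difference is the tumour mean minus the mucosa mean on that scale, given with its standard error (SE, 2 arrays a group). Of 13119 genes tested, 2775 (21.2%) rose in tumours and 1002 (7.64%) fell, 3777 (28.8%) in all, at an adjusted p under 0.05. Both tumour arrays lay on the same side of both mucosa arrays for 9038 genes (68.9%). The median difference over all genes was 0.24 rather than 0, and 0.15 after quantile normalization. Of the genes that rose, 2495 differed at least 2-fold and 960 at least 4-fold; of those that fell, 851 and 235. Every list of genes below is read against these shares. The number of calls depended on each array: 1945 genes were called without mucosa array 1, 2278 without mucosa array 2, 2055 without tumour array 1 and 2058 without tumour array 2. A fit to the 4 control arrays alone called 3428, of which 3150 were among the 3777.

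**Figure D1:**
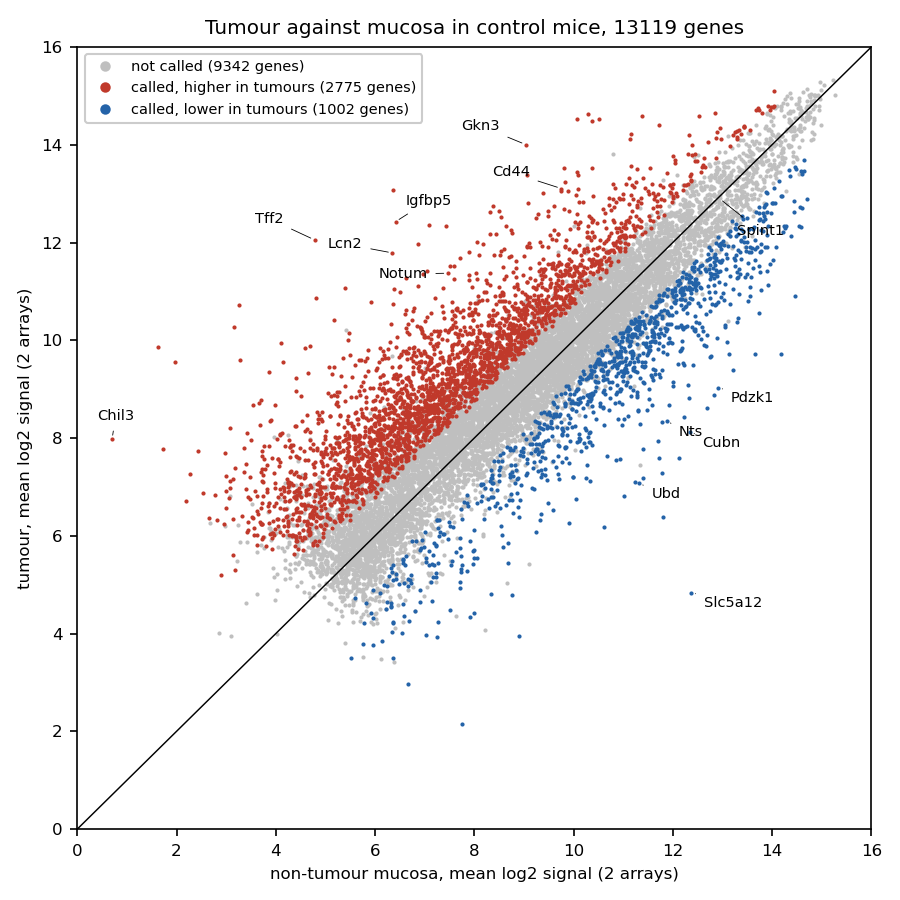
Each point is 1 of 13119 genes, with its mean log2 signal in control mucosa on the x axis and in control tumours on the y axis (2 arrays each); the diagonal marks equal signals. The 2775 genes called higher (red) spread above the diagonal further than the 1002 called lower (blue) spread below it, and Spint1 lies on the diagonal.

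Over the tested genes, which are not independent replicates, the mucosa arrays correlated at r = 0.968 and the tumour arrays at 0.960, and arrays of different tissues at 0.845 to 0.877 (Pearson). Tumour array 2 stood apart in RNA quality: its 3' probe set of Gapdh was 25.9 times as bright as the 5' one, a ratio that lay between 0.803 and 1.77 elsewhere. For Actb the same ratio was 2.32 on tumour array 2 and 1.145 to 1.517 elsewhere, a much smaller gap. Mucosa array 2 stood apart in its control probe sets: the poly-A spike-ins averaged 8.49 there against 6.36 to 7.12 on the other 3 arrays, and the 18S rRNA signal was 14.6 against 8.15 to 9.41. Called falls were more often deeper on tumour array 2 than on tumour array 1 (647 of 1002, 64.6%), and called rises were also more often lower on it (1656 of 2775, 59.7%), while over all genes tumour array 2 was the lower in 52.7%. With a model term that split the arrays by their poly-A spike-in signal, 3299 genes were called, 3065 of them among the 3777. RNA quality was not modelled, and the part of either in the differences was not tested further. Values without single control arrays are given beside many of the results.

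Spint1 differed between the tissues by less than the spread between arrays. Its log2 signal was 12.87 and 13.00 on mucosa arrays 1 and 2, and 12.75 and 13.06 on tumour arrays 1 and 2, a difference of -0.03 ± 0.24 (SE; adjusted p = 0.937), with overlapping groups; after quantile normalization the difference was 0.10. Apc differed by 0.08 ± 0.28 (adjusted p = 0.861) on its brightest probe set, and by -1.003 as a mean over its probe sets. Both tissues carried the markers of intestinal epithelium: Epcam, the epithelial adhesion molecule, was 14.58 and 14.63 in mucosa and 14.54 and 14.52 in tumours, and Vil1, the brush border actin bundler, was 14.62 and 14.60 against 14.04 and 14.14 (difference -0.52 ± 0.23, adjusted p = 0.139). Of 15 tested genes of small intestinal epithelial identity, 2 rose and 0 fell, with a median difference of -0.09. Krt18, a simple epithelial keratin, was 12.83 and 12.87 in mucosa against 14.59 and 14.72 in tumours (1.81 ± 0.22, adjusted p = 0.00231). The other, Gpa33, an intestinal surface antigen, was 0.95 higher, and its call was lost without mucosa array 1, mucosa array 2 or tumour array 2 (adjusted p up to 0.176); as a mean over its probe sets it differed by -0.04.

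The 15 largest rises were ranked after low values were raised to the filter value of 5.203, and where that applied a fold is given as a lower bound. Tff2, a trefoil peptide of gastric mucous cells, was 3.85 and 5.71 in mucosa and 12.04 and 12.07 in tumours, at least 96.9-fold higher (adjusted p = 0.00178). Igfbp5, a secreted binding protein for insulin-like growth factors, was 6.19 and 6.64 against 12.58 and 12.27, 64.6-fold higher (6.01 ± 0.27, adjusted p = 0.000236), although its other probe set differed by only 0.67. Nptx2, a secreted pentraxin, was 4.88 and 4.73 against 11.19 and 10.55, at least 50.8-fold higher (adjusted p = 0.000261). For these genes the tumour arrays lay far above the mucosa arrays and close to each other. Sbspon, a secreted protein with a thrombospondin domain, was at least 47.0-fold higher, and Tmem45a, a membrane protein, at least 46.1-fold higher. Ano1, a calcium-activated chloride channel, was 6.81 and 7.38 against 12.20 and 12.52 (5.27 ± 0.39, adjusted p = 0.000866). Slc38a4, a transporter of neutral amino acids, was 29.7-fold higher, and Mgp, an inhibitor of calcification in matrix, at least 26.7-fold higher.

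Several of the other large rises encode acute phase and antimicrobial proteins. Lcn2, which binds bacterial siderophores, was 6.46 and 6.24 in mucosa and 12.37 and 11.20 in tumours (5.44 ± 0.70, adjusted p = 0.00265), 43.3-fold higher. Saa3, a serum amyloid, was 34.4-fold higher and Serpina3n, a protease inhibitor, at least 33.4-fold higher. S100a8 and S100a9, the subunits of calprotectin, were at least 28.0-fold and 30.1-fold higher. Saa3 differed by 5.103 with all arrays, 4.33 without tumour array 1 and 5.88 without tumour array 2, and S100a8 by 4.04 without mucosa array 2. With low values raised in this way, the largest difference belonged to Retnlb, a resistin-like protein of goblet cells, at 5.396 and 7.33 in mucosa and 11.17 and 14.99 in tumours (6.72 ± 1.603, adjusted p = 0.0195). Its tumour arrays lay far apart: it differed by 4.81 without tumour array 2, 8.63 without tumour array 1, 5.75 without mucosa array 1 and 7.68 without mucosa array 2, and the call was lost without mucosa array 1 or tumour array 2 (adjusted p up to 0.101).

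Of the 15 largest falls, 6 were solute carriers. Slc5a4b, of the sodium-glucose transporter family, was 11.86 and 11.74 in mucosa and 8.32 and 4.45 in tumours, at least 32.8-fold lower (adjusted p = 0.00922). Slc23a1, which takes up vitamin C, was 10.86 and 11.18 against 7.81 and 5.82 (-4.20 ± 0.58, adjusted p = 0.00333), and Pdzk1, a scaffold of apical transporters, 13.20 and 12.63 against 9.92 and 8.14 (-3.89 ± 0.56, adjusted p = 0.00365). In each case both tumour arrays lay below both mucosa arrays, and tumour array 2 lay lowest. Ubd, a ubiquitin-like protein induced by interferon, was 11.53 and 11.10 against 7.36 and 6.78 (-4.25 ± 0.47, adjusted p = 0.00178), and Reg3a, an antimicrobial lectin, 13.29 and 12.09 against 9.59 and 7.64 (-4.08 ± 0.68, adjusted p = 0.00575). Slc5a11, a myo-inositol transporter (-4.11 ± 0.65), Net1, a guanine nucleotide exchange factor (-4.23 ± 0.77), Stk10, a kinase (-4.15 ± 0.80), and Tmem120a, a membrane protein (-3.94), kept their calls with any 1 array left out. All 9 falls described so far were deeper on tumour array 2. Without it the difference was -3.47 for Slc5a4b, -3.21 for Slc23a1, -2.996 for Pdzk1, -3.10 for Reg3a, -2.98 for Slc5a11, -2.99 for Net1, -2.83 for Stk10 and -2.60 for Tmem120a. Without tumour array 1 the last 7 of these differed by -4.77 (Pdzk1) to -5.47 (Stk10). Reg3a differed by -3.48 without mucosa array 1 and -4.68 without mucosa array 2. The calls of Slc5a12, a monocarboxylate transporter, Slc34a2, a phosphate transporter, the glucose transporter relative Slc5a4a, the nuclease Dnase1 and the peptidase Naaladl1 were each lost without mucosa array 1, all but that of Slc34a2 also without mucosa array 2, and all but that of Slc5a12 without tumour array 2. Slc5a12 was 9.17 on tumour array 1 and 0.51 on tumour array 2, at least 36.5-fold lower over both, and differed by -3.21 without tumour array 2. Without tumour array 2, Slc34a2 went from -4.52 to -2.31 (and to -3.05 without mucosa array 1), Slc5a4a from -4.49 to -3.10, Dnase1 from -4.46 to -2.46 and Naaladl1 from -3.94 to -2.24.

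**Figure D2:**
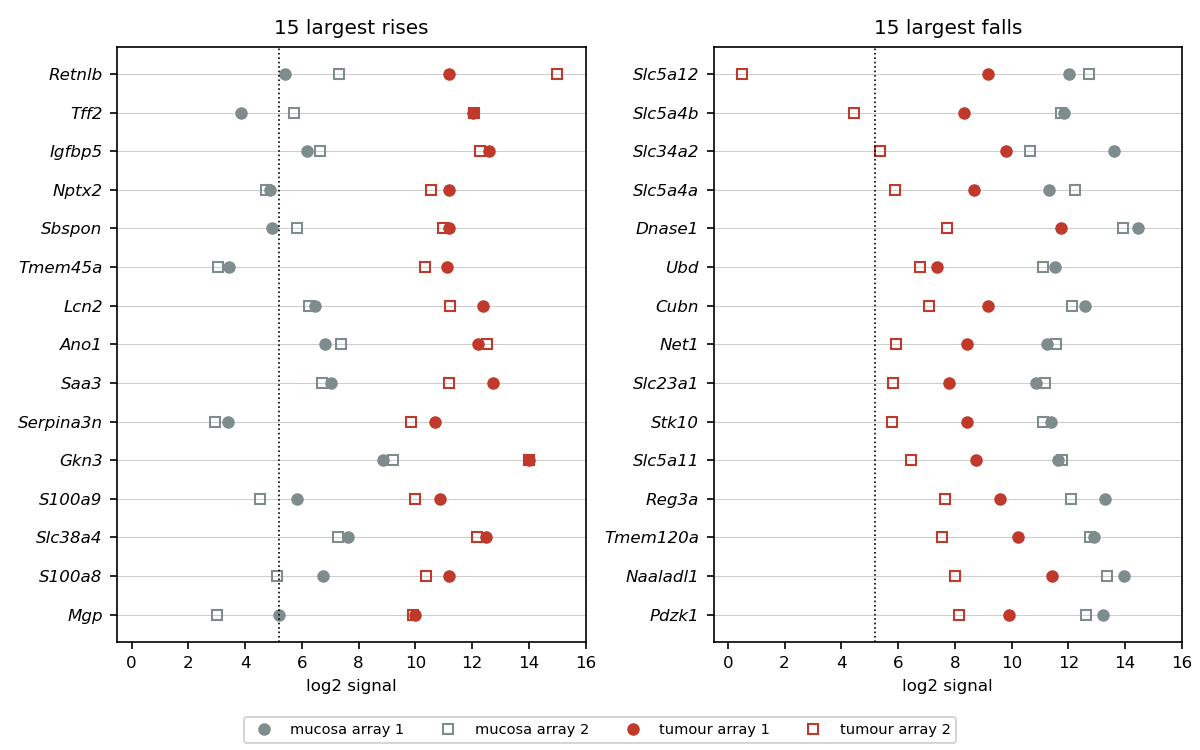
The log2 signal of the 15 genes with the largest called rise (left) and fall (right) is shown on each control array, with circles for array 1 and squares for array 2, and the dotted line marks the low-signal filter at 5.203. Among the rises Retnlb has the widest gap between the tumour arrays, and among the falls tumour array 2 lies below tumour array 1 for every gene.

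Most listed genes of the Wnt pathway were higher in tumours. Of 13 tested genes in a list of Wnt pathway inhibitors, called feedback inhibitors below, 7 rose and 0 fell, with a median difference of 2.23. Whether the pathway induces each of them was not tested. Notum, which strips the lipid from Wnt proteins, was 7.72 and 7.21 in mucosa and 11.50 and 11.24 in tumours, 14.98-fold higher (3.90 ± 0.31, adjusted p = 0.000867). Nkd1, an inhibitor that binds Dishevelled, was 6.79 and 6.72 against 10.75 and 10.45, 14.3-fold higher (3.84 ± 0.65, adjusted p = 0.00602). The 2 tumour arrays exceeded both mucosa arrays for each of them. Dkk3, of the Dickkopf family, was 3.46 higher, Sfrp1, which binds Wnt proteins outside the cell, 3.02 higher, and Znrf3, a ligase that clears Frizzled receptors, 2.23 higher. Axin2, a widely used reporter of the pathway, was 9.25 and 9.39 against 10.69 and 10.24, without overlap, but its difference of 1.14 did not pass the test (adjusted p = 0.116). Rnf43, the partner of Znrf3, differed by 1.30 (adjusted p = 0.0565). Apcdd1, another called member, was 2.68 higher, and its call was lost as a mean over its probe sets.

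Growth and crypt position genes listed for Wnt signalling moved in the same direction: 14 of 21 rose and 0 fell, with a median of 2.17. Cd44, the hyaluronan receptor of crypt cells, was 9.55 and 9.96 in mucosa and 13.25 and 12.96 in tumours, 10.2-fold higher (3.35 ± 0.28, adjusted p = 0.000921). Sox9, a transcription factor of progenitor and Paneth cells, was 6.75 and 7.64 against 10.29 and 10.11 (8.01-fold, adjusted p = 0.00345). Ephb3, an ephrin receptor that positions Paneth cells, was 3.05 higher (2.41 without tumour array 1 and 3.69 without tumour array 2), and Tnfrsf19, a receptor of stem cells also known as Troy, 3.13 higher. Ifitm1 and Ifitm3, membrane proteins that both interferon and Wnt signals induce, were 3.14 and 3.05 higher, and which signal was behind this was not tested. Mmp7, a protease of Paneth cells and adenomas, was 10.22 and 11.20 against 13.34 and 12.49 (2.20 ± 0.41, adjusted p = 0.00818).

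The promoters of the called Wnt genes were searched for the letters CTTTGAT and CTTTGAA, which T-cell factors bind, on both strands of the 250 bases before a gene start. RefSeq promoters on GRCm38.p6 were found for 12 of the 21 called members, and 3 of them held the letters, against 2333 of all 27025 genes with a promoter there (8.63%). Counted by promoter, it was 3 of the members' 21 windows (14.3%) against 2457 of 32851 (7.48%). The 3 stretches are shown because they carry the only matches in these windows, each before one of the listed starts of its gene, read along the gene's strand, with the motif in capitals as the reverse complement of CTTTGAT.
Mmp7 (chr9:7692091-7692111, plus strand): aacATCAAAGtagctctgaga
Tgif1 (chr17:70846911-70846939, minus strand): tcaaaatgtctATCAAAGtccaactggcc
Tnfrsf19 (chr14:61038172-61038200, minus strand): ctgaatgggggATCAAAGtgacaaactag
Counted from that listed start, the motif began 247 bases before it in Mmp7, 151 in Tgif1, a transcriptional repressor, and 202 in Tnfrsf19. The windows before the other listed starts of these genes held no match. Each match lies downstream of those other starts, so it is upstream of the gene only as counted from 1 of its starts. A match is a description of the letters and not a measured binding site, and the 3 genes rose by 2.20, 2.05 and 3.13 on the log2 scale.

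Stem cell markers were split. Of 15 tested, 9 rose, 0 fell and 6 did not pass, with a median of 1.76. Sox9, Tnfrsf19 and Ascl2 were members both of this list and of the growth and crypt position list above. Lgr5, the R-spondin receptor that marks crypt base stem cells, was 7.18 and 7.09 in mucosa and 11.13 and 9.98 in tumours, 10.7-fold higher (3.42 ± 0.48, adjusted p = 0.00344). Smoc2, a matrix protein of the same cells, was 2.63 higher, Prom1, the CD133 antigen, 2.68 higher, and Msi1, an RNA-binding protein, 2.40 higher. Olfm4, a secreted glycoprotein that also marks crypt base cells, was 12.50 and 13.33 in mucosa and 12.26 and 13.50 in tumours, with overlapping groups and a difference of -0.04 ± 1.01. Lrig1 (0.89), Bmi1 (0.58) and Hopx (0.74), markers of slowly dividing or reserve stem cells, did not pass the test.

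Every tested member of the list of genes of fetal-like, regenerating epithelium rose, 10 of 10, with a median of 3.11; at least 8 were called with any 1 of the 4 control arrays left out. Anxa10, a calcium-binding annexin also found in stomach, was 9.24 and 8.87 in mucosa and 13.30 and 13.46 in tumours, 20.02-fold higher (4.32 ± 0.26, adjusted p = 0.000454). Anxa1, an annexin of the resolution of inflammation, was 9.85 and 9.64 against 13.28 and 12.84 (3.31 ± 0.27, adjusted p = 0.000867). Clu, a secreted chaperone of revival stem cells, was 3.20 higher, Ccn2, a matricellular target of YAP, 11.3-fold higher, Gja1, a gap junction protein, 3.34 higher, and Anxa3 3.02 higher. The groups did not overlap for any of the 10 genes.

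Of 28 tested genes of DNA replication and mitosis, 25 rose, 0 fell, and all 28 were higher on both tumour arrays, with a median of 1.84. Mki67, the nuclear antigen of cycling cells, was 10.07 and 10.62 in mucosa and 12.22 and 11.87 in tumours (1.70, adjusted p = 0.0132). Ccne1, the cyclin of the entry into S phase, was 2.55 higher (1.89 without mucosa array 1 and 3.22 without mucosa array 2), Mcm5, a subunit of the replicative helicase, 2.35 higher, and Rrm2, which makes deoxynucleotides, 2.28 higher. Pcna, the polymerase clamp, differed by 0.74 and did not pass. The count was 12 without mucosa array 1 and 11 without tumour array 1. Genes of ribosome assembly in the nucleolus followed, with 13 of 18 called higher, 0 lower and a median of 1.40. Nop56, a core protein of small nucleolar particles, was 9.13 and 8.83 against 11.48 and 11.20 (2.36 ± 0.28, adjusted p = 0.00197), and Fbl, their RNA methylase, 1.82 higher; 7 members were called without mucosa array 1 and 5 without tumour array 1.

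**Figure D3:**
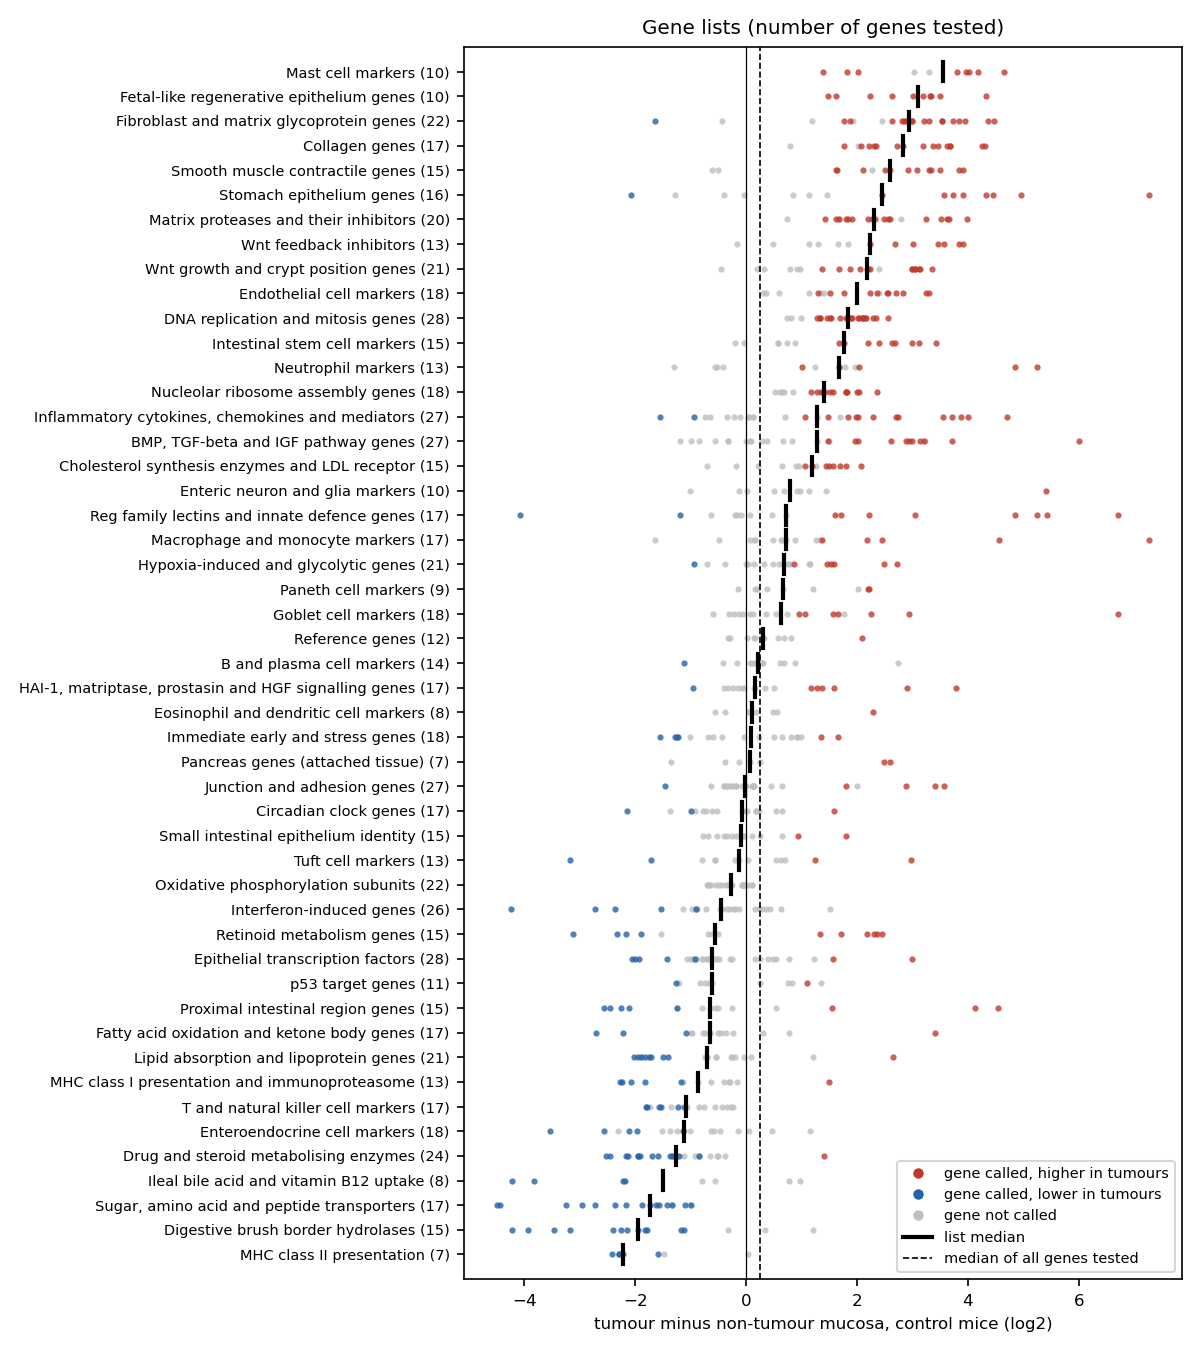
Each point is the tumour minus mucosa difference in control mice (log2, x axis) of 1 tested member of a gene list (y axis, number tested in parentheses), red or blue where called and grey where not; the black bar is the list median and the dashed line the median of all 13119 genes, 0.24. Medians run from 3.55 for mast cell markers to -2.22 for MHC class II genes, and the oxidative phosphorylation subunits hold no called gene.

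Genes of digestion at the brush border were lower. The list of hydrolases, as named here and below, also held Cubn, part of the vitamin B12 receptor. Of its 15 tested genes, 12 fell, Cubn among them, and 0 rose, with a median of -1.95. Mep1a, the alpha subunit of meprin, was 12.12 and 11.45 in mucosa and 9.34 and 7.31 in tumours, 10.99-fold lower (-3.46 ± 0.64, adjusted p = 0.00783), a difference of -2.44 without tumour array 2 and -4.47 without tumour array 1. Dpp4, a dipeptidyl peptidase, was 13.94 and 13.97 against 12.05 and 11.07 (-2.39 ± 0.38, adjusted p = 0.00509). Alpi, the intestinal alkaline phosphatase, did not share this pattern, at 14.28 and 14.21 in mucosa and 14.17 and 15.01 in tumours, and Lct, lactase, was lower mainly on tumour array 2 (13.40 and 11.25 against 14.55 and 14.62; -2.25, -1.18 and not called without that array, and -3.33 without tumour array 1; the call was also lost without either mucosa array). The list median was -1.58 without tumour array 2 and -2.03 without mucosa array 2. The number called was 6 without mucosa array 1, 5 without mucosa array 2 and 6 without tumour array 2.

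Transporters of sugars, amino acids and peptides were lower throughout: 15 of 17 fell, 0 rose, and all 17 were lower on both tumour arrays, with a median of -1.72. Slc36a1, a proton-coupled amino acid transporter, was 9.44-fold lower (-3.24 ± 0.38, adjusted p = 0.00197). Slc7a8, an exchanger of neutral amino acids, was 11.86 and 12.16 in mucosa and 9.62 and 8.50 in tumours (-2.95 ± 0.39, adjusted p = 0.00295), and Slc43a2, a carrier of large neutral amino acids, was 13.87 and 13.66 against 11.73 and 11.07 (-2.37 ± 0.29, adjusted p = 0.00233). The median was -1.61 without tumour array 2, and 7 members were called without mucosa array 2 or without tumour array 2. Cubn and Amn, which together form the ileal receptor of vitamin B12 bound to intrinsic factor, fell together: Amn was 13.36 and 13.09 against 10.27 and 8.52 (-3.83 ± 0.52, adjusted p = 0.00305) and Cubn 12.58 and 12.12 against 9.16 and 7.09 (-4.23 ± 0.71, adjusted p = 0.00589). Without tumour array 2 they differed by -2.96 and -3.19, and without tumour array 1 by -4.70 and -5.26. Slc51a and Slc51b, the subunits of the basolateral bile acid exporter, differed by -2.22 and -2.19, so 4 of 8 members of the ileal list fell and 0 rose.

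Lipid handling was divided. Of 21 genes of fat absorption and lipoproteins 8 fell and 1 rose, with a median of -0.70; between 4 and 5 fell with any 1 control array left out. Npc1l1, which takes up cholesterol (-1.96 ± 0.29), Abcg5, which returns sterols to the lumen (-2.02 ± 0.34), and Mogat2, which rebuilds triglyceride (-1.75 ± 0.28), fell. Fabp1 (-0.26), Fabp2 (-0.03), Apoa1 (0.09) and Apoa4 (-0.20), abundant products of enterocytes, did not pass the test. Scarb1, a receptor of high density lipoprotein, was 6.69 and 7.16 in mucosa and 9.13 and 10.02 in tumours (2.65 ± 0.39, adjusted p = 0.00412). Of 15 enzymes of cholesterol synthesis and the LDL receptor, 8 rose and 0 fell, with a median of 1.19: Fdft1, squalene synthase, was 2.08 higher and Mvd, mevalonate decarboxylase, 1.81 higher. That count was 3 without mucosa array 1 or tumour array 2, and 4 without tumour array 1.

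Of 24 enzymes that metabolise drugs and steroids, 14 fell and 1 rose, with a median of -1.26; 5 to 8 fell with any 1 control array left out, the fewest without mucosa array 1. Gstm3, a glutathione transferase, was 13.58 and 13.42 in mucosa and 11.40 and 11.34 in tumours (-2.13 ± 0.24, adjusted p = 0.00182), and Cyp4f14, a fatty acid hydroxylase, and Ces1f, a carboxylesterase, differed by -1.94 and -1.96. The largest called falls among these enzymes were those of Cyp2c55 (-2.53), Cyp2b10 (-2.45) and Aldh1a1 (-2.17). Without tumour array 2, Cyp2c55 differed by -1.42 and Aldh1a1 by -1.78. The call of Cyp2c55 was lost with no low-signal filter and in the fit to the control arrays alone. Retinoid genes changed in both directions, 6 of 15 up and 4 down. Rdh7, a retinol dehydrogenase, was 13.25 and 12.93 against 10.15 and 9.78 (-3.13 ± 0.37, adjusted p = 0.00197), and Retsat, which saturates retinol, differed by -2.33 ± 0.37. Stra6, the receptor that takes retinol into cells, was 6.61 and 6.65 against 9.10 and 9.07 (2.46 ± 0.26, adjusted p = 0.00143), and Aldh1a2 and Aldh1a3, which make retinoic acid, were 2.32 and 2.36 higher. Without mucosa array 1 or mucosa array 2, 2 of the retinoid genes fell.

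In energy metabolism 0 of 22 subunits of oxidative phosphorylation were called, with differences from -0.70 to 0.11. Of 17 genes of fatty acid oxidation 3 fell and 1 rose. Ppargc1a, a coactivator of mitochondrial genes, was 10.89 and 11.50 in mucosa and 8.90 and 9.05 in tumours (-2.22 ± 0.30, adjusted p = 0.00305), and Acot1, a cytosolic acyl-CoA thioesterase, was 5.71 and 5.79 against 9.09 and 9.22 (3.40 ± 0.26, adjusted p = 0.000866). Of 21 genes of hypoxia and glycolysis 6 rose and 1 fell, with a median of 0.69, and 3 rose without mucosa array 1, mucosa array 2 or tumour array 1. Slc2a1, the glucose transporter GLUT1, was 9.82 and 10.38 against 12.50 and 13.17 (2.73 ± 0.32, adjusted p = 0.00197), and Hk1, hexokinase, 2.48 higher. The member that fell was Vegfa, vascular endothelial growth factor A (-0.94, adjusted p = 0.0326). Vegfa differed by -0.77 without mucosa array 1 and -1.11 without mucosa array 2. Its call was lost with no low-signal filter and as a mean over its probe sets. The fit to the control arrays alone and a spike-in batch term did not call it either.

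Secretory lineages did not move alike. Of 18 goblet cell markers 7 rose and 0 fell, with a median of 0.64, and 4 rose without mucosa array 1 or tumour array 2. Spdef, the transcription factor of goblet cell maturation, was 8.42 and 8.31 in mucosa and 10.70 and 10.54 in tumours (2.25 ± 0.25, adjusted p = 0.00183), and Creb3l1, a transcription factor of secretory cells, 2.94 higher. The products of these cells were divided. Retnlb and Spink4 were called higher, by 6.72 and 1.06 (adjusted p = 0.0195 and 0.0243). Without tumour array 2 they differed by 4.81 and 0.87. Both calls were lost with no low-signal filter, and that of Spink4 also with a spike-in batch term. Muc2, the gel mucin (0.54), Tff3 (0.13) and Zg16 (0.07) did not pass. Of 18 enteroendocrine markers 5 fell and 0 rose, with a median of -1.12. Nts, neurotensin, was 12.22 and 11.52 against 8.79 and 7.89 (-3.53 ± 0.45, adjusted p = 0.00249), and Gip, the incretin of upper intestine, 12.84 and 12.31 against 9.73 and 10.31 (-2.55 ± 0.32, adjusted p = 0.0025). The pan-endocrine marker Chga differed by -1.13, a call lost without any 1 of the 4 control arrays, and 2 markers fell without mucosa array 1 and 3 without tumour array 1. Of 9 Paneth cell markers 2 rose, Mmp7 and Nupr1, a stress-induced chromatin protein, which was 2.21 higher. Among 13 tuft cell markers 2 rose and 2 fell: Avil, an actin-binding protein, was 8.70 and 8.80 against 12.05 and 11.41 (2.98 ± 0.34, adjusted p = 0.00183), and Ltc4s, which makes leukotriene C4, differed by -3.17 ± 0.52 (-2.31 without tumour array 2 and -4.03 without tumour array 1). The remaining pair, Alox5 and Pou2f3, lost their calls without several single arrays.

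Genes typical of stomach epithelium stood higher, 8 of 16 called up and 1 down, with a median of 2.45, or 1.93 after raising low values to the filter value. Gkn3, a gastrokine of mucous neck cells, was 8.86 and 9.21 in mucosa and 14.00 on both tumour arrays, 31.2-fold higher (4.97 ± 0.36, adjusted p = 0.000866). Gkn1, another gastrokine, was 7.605 and 8.18 against 12.75 and 10.85, and Aqp5, a water channel of pyloric glands, 6.40 and 5.80 against 10.62 and 9.06 (3.74 ± 0.59, adjusted p = 0.00486). Without tumour array 1 they differed by 2.96 and 2.95, and without tumour array 2 by 4.86 and 4.52. Ctse, the gastric protease cathepsin E, was 22.0-fold higher on its brightest probe set and lower by 1.94 on the other (-1.94), and was not called as a mean of both. The list median was 3.72 without tumour array 2 and 1.71 without tumour array 1. Of 7 genes of pancreas, tested as a check for attached tissue, 2 rose, Cela1, an elastase (2.48 ± 0.35), and Pnliprp1, a lipase-related protein (2.60, 1.96 without mucosa array 1 and 3.24 without mucosa array 2), a call lost without any 1 of the 4 control arrays. The median of that list was 0.07.

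**Figure D4:**
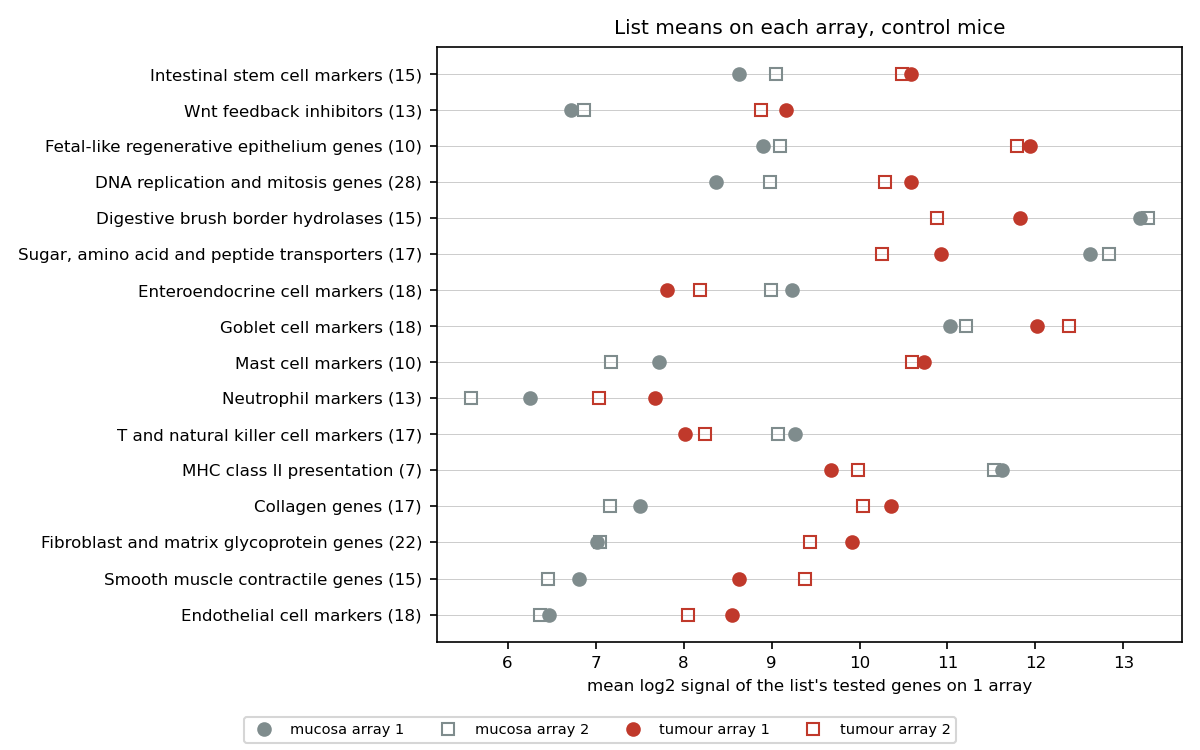
The mean log2 signal of the tested members of 16 lists (number in parentheses) is shown on each control array, with grey for mucosa, red for tumours, circles for array 1 and squares for array 2; levels are to be compared within a list only. The tumour arrays lie on the same side of both mucosa arrays for all 16 lists, and the hydrolases and transporters lie lowest on tumour array 2.

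Markers of mast cells were higher, 8 of 10 called up and 0 down. With all arrays their median of 3.55 was the highest of the lists; it was 2.995 without mucosa array 2 and 2.79 with a model term that split the arrays by their poly-A spike-in signal, below the 3.19 and 3.16 of the fetal-like list. Of these markers 6 or 7 were called with any 1 control array left out. In bulk samples, more cells of a type and more RNA per cell cannot be told apart, nor can fewer cells and less RNA. Fcer1a, the alpha chain of the IgE receptor, was 6.45 and 6.32 in mucosa and 11.04 on both tumour arrays, 25.2-fold higher (4.65 ± 0.79, adjusted p = 0.00603). Mcpt2, a mucosal mast cell protease, was 10.99 and 10.02 against 14.46 and 14.59 (4.02 ± 0.71, adjusted p = 0.00691). Cpa3, carboxypeptidase of mast cell granules, was 3.97 higher, Ms4a2, the beta chain of the IgE receptor, 3.80 higher, and Cma1, a chymase, at least 18.2-fold higher. For each of these 5 genes both tumour arrays lay above both mucosa arrays, by more than the distance between arrays of a group.

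Other leukocyte markers differed by type. Of 17 T and natural killer cell markers 6 fell, 0 rose, and all 17 were lower by their means, with a median of -1.08; 2 fell without mucosa array 1 and 3 without each of the other control arrays in turn. Cd8a, the coreceptor of cytotoxic T cells, was 9.19 and 8.92 in mucosa and 7.57 and 7.395 in tumours (-1.57 ± 0.26, adjusted p = 0.00563), and Ccl5, a chemokine of cytotoxic cells, was 12.72 and 12.53 against 10.66 and 11.02 (-1.79 ± 0.28, adjusted p = 0.00479). Of 14 B and plasma cell markers 1 fell, Blk (-1.12), whose call was lost without mucosa array 2 or either tumour array. Of 17 macrophage and monocyte markers 5 rose and 0 fell, 3 without either mucosa array. Arg1, arginase of alternatively activated macrophages, was 4.97 and 3.85 against 8.998 and 8.95, at least 13.6-fold higher (adjusted p = 0.00106), and Chil3, a chitinase-like protein, was 0.00 and 1.40 against 7.73 and 8.22, at least 6.83-fold higher. The general macrophage markers Csf1r (0.16), Adgre1 (0.71) and Cd68 (0.89) did not pass. Of 13 neutrophil markers 5 rose, among them S100a8, S100a9 and Mmp9, a gelatinase (1.67 ± 0.30), while Mpo (-0.53) and Elane (-0.56), proteins of neutrophil granules, did not pass; 3 rose without mucosa array 2 or tumour array 1.

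Inflammatory mediators rose for 13 of 27 members and fell for 2, with a median of 1.29; 6 rose without mucosa array 2 or without tumour array 1. Ptgs2, the inducible cyclooxygenase, was 6.69 and 6.55 in mucosa and 11.09 and 10.15 in tumours, 16.04-fold higher (adjusted p = 0.000885). Cxcl3, a chemokine of neutrophils, was 4.65 and 4.51 against 8.59 and 7.68, at least 7.63-fold higher, and its adjusted p was 0.0524 without tumour array 1. Il11, a cytokine of the interleukin 6 family, was 5.35 and 4.74 against 10.22 and 7.61, at least 12.5-fold higher; it differed by 2.57 without tumour array 1 and 5.18 without tumour array 2, and its call was lost without mucosa array 2. Il1b and Cxcl2 were 2.75 and 2.70 higher and were 1.73 and 1.68 higher without tumour array 1, with their calls lost, and 3.76 and 3.72 higher without tumour array 2. Cxcl2 was 3.29 higher without mucosa array 1 and 2.11 without mucosa array 2, and the calls of both were lost without mucosa array 2, that of Il1b also without mucosa array 1.

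MHC class II genes, which present peptides to helper T cells, were lower. Of 7 MHC class II genes 5 fell and 0 rose, with a median of -2.22, and 4 or 5 fell with any 1 control array left out. H2-Ab1, a beta chain, was 13.98 and 13.48 in mucosa and 11.17 and 11.85 in tumours (-2.22 ± 0.32, adjusted p = 0.00359), H2-Eb1, another beta chain, differed by -2.29 ± 0.33, and H2-DMa, which loads peptide, was 11.80 and 11.64 against 9.06 and 9.56 (-2.41 ± 0.28, adjusted p = 0.00193). Cd74, the invariant chain, differed by -1.47 and did not pass (adjusted p = 0.164). Of 13 genes of class I presentation 5 fell and 1 rose, and 2 fell with any 1 control array left out; Tap2, a peptide transporter, differed by -1.82 ± 0.26, and H2-T3, a ligand of intraepithelial T cells, by -2.28 ± 0.43 (-1.58 without tumour array 2 and -2.97 without tumour array 1). Of 26 interferon-induced genes 5 fell, 0 rose and 21 did not pass, with a median of -0.44. Igtp, a GTPase, was 12.40 and 12.05 against 9.54 and 9.46 (-2.72 ± 0.41, adjusted p = 0.00435), and with Ubd it kept its call without any 1 array. Of this list 2 or 3 fell with 1 control array left out.

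Most genes of connective tissue rose. Of 17 collagen genes 15 rose and 0 fell, with a median of 2.84. Col1a2, a chain of type I collagen, was 8.19 and 8.44 in mucosa and 12.77 and 12.46 in tumours, 19.7-fold higher (4.30 ± 0.25, adjusted p = 0.000454). Col5a2, which sets fibril width, was 6.66 and 7.07 against 11.25 and 10.99 (4.26 ± 0.27, adjusted p = 0.000588). The basement membrane chains Col4a1 and Col4a2 were 3.68 and 3.46 higher. All 17 genes were higher on both tumour arrays, and 12 to 14 were called with any 1 control array left out.

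Of 22 genes of fibroblasts and matrix glycoproteins 17 rose and 1 fell, with a median of 2.94. Dcn, decorin, which binds collagen fibrils, was 8.16 and 8.62 in mucosa and 12.90 and 12.59 in tumours, 20.5-fold higher (4.36 ± 0.34, adjusted p = 0.000867). Postn, periostin, was at least 13.7-fold higher, Lum, lumican, 3.54 higher, Fn1, fibronectin, 3.30 higher, and Grem1, a secreted inhibitor of BMP ligands, at least 7.26-fold higher. Fap, an activation marker of fibroblasts, differed by -0.43 and did not pass, and Fbln1, a fibulin, fell (-1.64). Matrix proteases and their inhibitors rose for 17 of 20 members, with 0 falling and a median of 2.30. Mmp10, stromelysin 2, was 8.79 and 8.30 against 12.62 and 12.44, 15.8-fold higher (3.99 ± 0.41, adjusted p = 0.00142), and Timp1, a metalloprotease inhibitor, was 6.33 and 6.01 against 10.07 and 9.52, 12.3-fold higher (3.62 ± 0.30, adjusted p = 0.000867). Mmp13, a collagenase, was 3.65 higher.

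Smooth muscle and vessel markers stood higher as well. Of 15 contractile genes of smooth muscle 12 rose and 0 fell, with a median of 2.60, 2.27 without tumour array 2 and 3.38 without tumour array 1. Acta2, smooth muscle actin, was 9.35 and 9.23 in mucosa and 12.10 and 13.07 in tumours (3.29 ± 0.38, adjusted p = 0.00197), Tagln, transgelin, 3.33 higher, and Des, desmin, at least 9.69-fold higher. The count was 7 without mucosa array 2 or tumour array 2. Of 18 endothelial markers 11 rose and 0 fell, with a median of 2.01, and 7 rose without tumour array 1. Vwf, von Willebrand factor, was 5.99 and 6.07 against 8.75 and 8.96 (2.83 ± 0.48, adjusted p = 0.00614), Sox17, a transcription factor of arterial endothelium, was 3.24 higher and Eng, endoglin, 2.71 higher, while Pecam1 differed by 0.35 and did not pass. Of 10 markers of enteric neurons and glia 1 rose: Vip, vasoactive intestinal peptide, was 4.24 and 4.06 against 9.75 and 9.37, at least 20.5-fold higher (adjusted p = 0.000236).

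In the list of HAI-1, matriptase, prostasin and hepatocyte growth factor signalling genes, 6 of 17 rose and 1 fell. The median was 0.17, near that of all genes, and 0.04 to 0.35 with any 1 control array left out. St14, which encodes matriptase, the chief target of HAI-1, differed by -0.14, Met, the receptor of hepatocyte growth factor, by 0.50, and Hgf by 0.17. None of these passed the test. Hpn and Hgfac, other members, were called higher, by 2.90 and 1.59 (adjusted p = 0.0198 and 0.0133). Hpn differed by 1.69 without mucosa array 2, and Hgfac by 1.17 without tumour array 1. The call of Hpn was lost without either tumour array, with no low-signal filter and in the fit to the control arrays alone. That of Hgfac was lost without mucosa array 1 or tumour array 1. Fewer members of this list were called with any 1 control array left out. Plat, tissue plasminogen activator, was 8.05 and 8.30 in mucosa and 11.70 and 12.23 in tumours, 13.8-fold higher (3.79 ± 0.42, adjusted p = 0.00178). Prss8, prostasin, was 8.57 and 8.12 against 9.73 and 9.70 (1.37 ± 0.27, adjusted p = 0.00983), and its adjusted p was 0.0555 without mucosa array 2. Of 27 genes of cell junctions 4 rose and 1 fell, with a median of -0.01. Cldn2, a claudin that forms cation pores in crypts, was 9.94 and 9.72 against 13.27 and 13.22, 10.7-fold higher (3.42 ± 0.28, adjusted p = 0.000867), though its other probe set differed by -0.09. Of 27 genes of BMP, TGF-beta and IGF signalling 11 rose and 0 fell. Besides Igfbp5, Igfbp4 was 3.72 higher, Igf1, a growth factor, 3.21 higher, Igfbp7 3.13 higher and Igfbp3 2.88 higher.

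The HAI-1 deficient mice gave the same comparison in 4 other arrays, which also enter the estimate of the spread behind the control comparison. There 551 genes (4.2%) were called, 321 higher and 230 lower in tumours. Of the 2775 genes that rose in control mice, 2699 (97.3%) were higher in tumours of deficient mice as well and 309 were called there, 11.1% of the control calls and 96.3% of the deficient ones. Of the 1002 that fell, 945 (94.3%) were lower and 204 were called, 20.4% and 88.7%. The number of genes called in opposite directions was 0. Notum, Cd44, Lgr5, Sox9, Mcpt2, Fcer1a, Col1a2, Dcn, Tff2 and Lcn2 rose in both genotypes, and Slc23a1, Dpp4, Amn, Nts, Rdh7 and Gstm3 fell in both.

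For most genes called in control mice the difference was smaller in the deficient mice. The median of the genes that rose was 1.66 in control and 0.88 in deficient mice, and that of the genes that fell -1.46 and -0.89; both sets were chosen for their difference in control mice, and part of this gap follows from that choice. Of the 551 genes called in deficient mice, chosen there, 546 (99.1%) had the same direction in control mice and 385 (69.9%) the larger difference in control mice, with a median size of 1.74 in deficient and 2.14 in control mice. Wnt feedback inhibitors had medians of 2.23 and 1.44, collagens 2.84 and 1.32, MHC class II genes -2.22 and -0.95, mast cell markers 3.55 and 2.91, hydrolases -1.95 and -1.86, and transporters -1.72 and -2.22, in control and deficient mice. For cholesterol synthesis they were 1.19 and 0.21, and for hypoxia and glycolysis 0.69 and -0.05. The limma test of the difference itself called 0 genes (0.0%), with a lowest adjusted p of 0.180 and 1211 genes at an unadjusted p under 0.05. By unadjusted p, the 5 leading genes of either sign were looked at, and those above the filter value on all 8 arrays were Acot1 in one (-3.18 ± 0.36, deficient minus control; adjusted p = 0.180) and Ubd (3.72 ± 0.66, adjusted p = 0.254), Mycbpap (2.23) and Plaat3 (1.95) in the other. For the first of these, deficient mucosa lay at 8.70 and 9.09 and deficient tumours at 9.28 and 8.94, and for Ubd at 6.93 and 5.91 against 6.40 and 5.38.

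**Figure D5:**
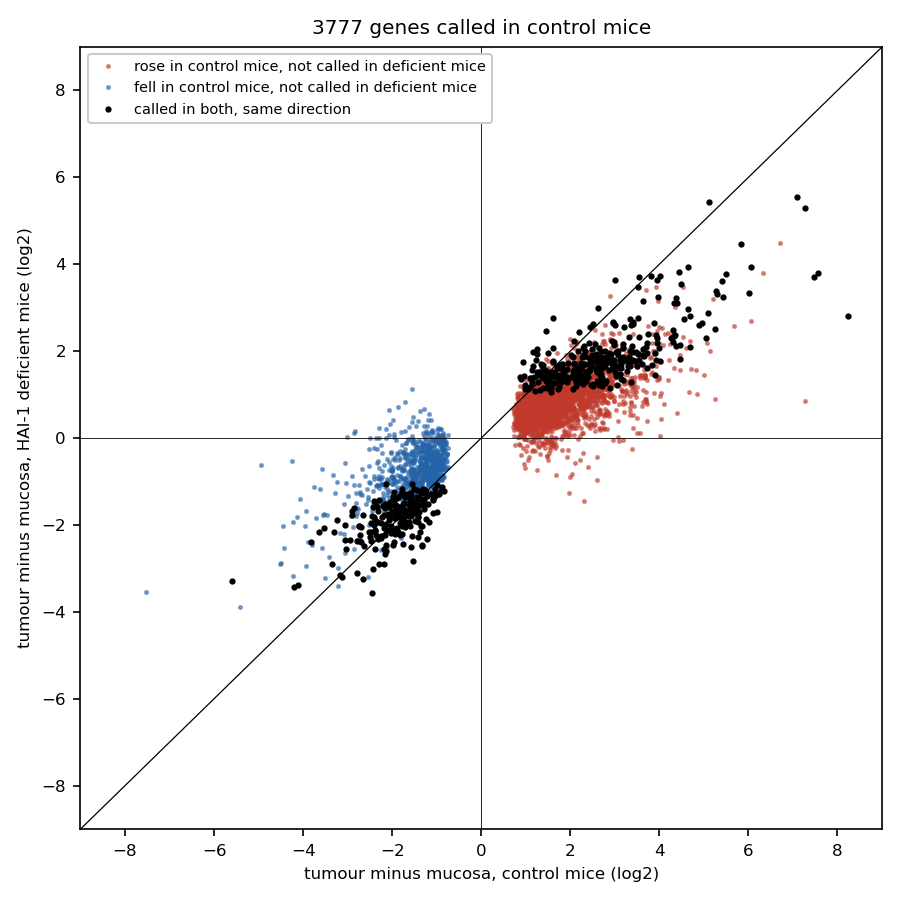
Each point is 1 of the 3777 genes called in control mice, with its tumour minus mucosa difference (log2) in control mice on the x axis and in HAI-1 deficient mice on the y axis; the diagonal marks equal differences, and black points were called in both. Nearly all points share the sign of the control difference, and most lie closer to 0 in deficient mice.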

How the data were processed

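RNA was measured on 8 arrays, 2 for each of 4 groups taken from the labels. The deposited table holds 1 log2 signal per probe set and array. Per the submitters' processing notes, MAS5 and RMA were used by the authors; which step each served, and its version, was not stated in the notes used. The deposited log2 values were of the MAS5 kind: the mean linear signal, with 2% trimmed from either end, was 500.003 to 500.004 on every array, and 313 to 762 probe sets stood at 0. No further scaling was applied. MAS5 values of dim probe sets have large errors on the log2 scale.

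Of 45101 probe sets, the platform annotation gave 34958 a single gene, 932 several and 9211 none. Genes were represented by the brightest of their single-gene probe sets on average, whichever way it differed, and probe sets with a mean under the 40th percentile (5.203) were left out, leaving 13119 genes. Gene symbols were updated through the reference gene table of GRCm38.p6. A gene's levels are compared between arrays only, not with those of other genes.

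The model, fitted in limma 3.58.1 (R 4.3.3) with default moderation, had a mean per group and used all 8 arrays (4 residual and 3.52 prior degrees of freedom). Tests were two-sided, with Benjamini-Hochberg adjustment over 13119 genes, and calls were made where the adjusted p was under 0.05. The script was tested on simulated data. Where an array of the lower group lay under the filter value, it was raised to it and the fold is a lower bound ("at least"). Figures were drawn with python 3.11.15.

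The members and the 52 gene lists (899 of 987 entries had a probe set) were chosen with earlier results of these data known, so counts over lists are descriptions, given with no test of the list. Some genes are members of several lists and count in each of them. Named with values were Spint1, Apc and Vil1, and the 15 largest called rises and falls of at least 1 on the log2 scale without overlap. Further names came from up to 6 called members of each list by the same ranking, and from defining markers of cell types. Not all of these ranked members are printed, and Cxcl5 and Anpep are among those left out. Counts of named genes below cover all ranked members. Axin2, Rnf43, Mki67, Pcna, Alpi, Fbln1, Cd74, Tgif1, St14, Met, Hgf and the lipid carriers that did not pass were named after their values were seen. Alternatives were quantile normalization, other low-signal filters, a mean-variance trend, means over probe sets, smaller fits, a replicate block, raised low values, a spike-in batch term and leaving out each array.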

Additional observations from a re-analysis of the deposited data

Results flagged for a closer look

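Bhlhe41, a repressor of the circadian clock, was singled out because both tumour arrays lay above both mucosa arrays in control mice and below them in deficient mice. In control mice it was 5.25 and 4.02 in mucosa and 6.39 and 6.07 in tumours (1.59, adjusted p = 0.0218; 1.01 with the low value raised to the filter value). In deficient mice it was 5.53 and 5.64 against 5.42 and 5.38, a difference of -0.18 that was not called. The test of the difference gave -1.78 ± 0.56 (SE, deficient minus control; adjusted p = 0.413), which did not pass. The call in control mice was lost without mucosa array 2 (0.98; 2.21 without mucosa array 1), tumour array 1 or tumour array 2.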

How the results depend on the processing

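Of the 242 named genes called, 154 kept their call under every alternative run and 158 when each of the 8 arrays was left out in turn; the low-signal filter left out (no filter) lost 49. In control mice 2464 genes were called with no filter, 582 of them lower. With each array left out in turn, 1945 to 3767 genes were called, 1406 to 2763 higher and 358 to 1004 lower. In deficient mice the count was 0 with no filter, with only the arrays compared or with a replicate block, 959 with a 60th percentile filter, 972 with a variance trend, 1000 with raised low values, and 0 to 346 with an array left out. The difference between genotypes gave 0 calls under each alternative run; it was not run on only the arrays compared. Reversed values were those of Spint1 (0.10 with quantile normalization), Apc (-1.003 with the mean of probe sets) and Gpa33 (-0.042 with the mean of probe sets); with an array left out, Apc ranged from -0.18 to 0.34 and Spint1 up to 0.12. The causes were not tested. The replicate block gave 3338 calls in control mice; same-numbered tumour and mucosa arrays correlated in their deviations at 0.11 in control and 0.01 in deficient mice, so the numbers were not taken as pairs. A spike-in batch term gave 3299 calls. Signal over background limits dim genes: with no detection calls used, a low value is known only as low.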

Other observations

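Signals of Cybrd1 and Slc40a1, from the list of genes of the upper intestine, differed between the tumour arrays. Cybrd1, the duodenal ferric reductase, was 5.44 and 5.48 in mucosa and 7.84 and 12.15 in tumours (4.54 ± 1.14, adjusted p = 0.0236), and Slc40a1, the iron exporter ferroportin, was 7.87 and 9.14 against 11.07 and 14.21 (4.14 ± 0.92, adjusted p = 0.0151). Tumour array 2 was the higher for both; without it the differences were 2.38 and 2.57, without tumour array 1 6.69 and 5.71, the call of Cybrd1 was lost without either mucosa array, and that of Slc40a1 without mucosa array 1 (3.504; 4.77 without mucosa array 2). In the list of genes of the upper intestine 3 of 15 rose and 5 fell. In that of the colon 1 of 5 fell, Slc26a3, a chloride exchanger (-1.63), whose call was lost without mucosa array 2 or tumour array 1. Of 17 Reg lectins and innate defence genes 8 rose and 2 fell, and Pglyrp1, which binds peptidoglycan, was 3.05 higher, a call lost without mucosa array 1 or either tumour array. Of 28 epithelial transcription factors 2 rose and 5 fell: Foxa3, of secretory cells, was 9.08 and 8.98 against 10.92 and 10.28 (1.57 ± 0.28, adjusted p = 0.00689), and Hnf4g, of enterocytes, was 11.40 and 12.21 against 9.79 and 9.96 (-1.93 ± 0.37, adjusted p = 0.00916).

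Immediate early and stress genes changed in both directions, 2 of 18 up and 4 down. Fosb (-1.55), Jun (-1.28), Atf3 (-1.22) and Ddit3 (-1.25) fell and Nr4a1 (1.65) rose, but 0 members fell without mucosa array 2 or without tumour array 2. Of 17 clock genes 1 rose and 2 fell, and Npas2, an activator of the clock, differed by -2.14 ± 0.42 (adjusted p = 0.00945), a call lost without tumour array 2. Of 11 p53 targets 1 rose and 1 fell, and of 8 eosinophil and dendritic cell markers 1 rose, Alox15 (2.29), which differed by 1.34 without tumour array 2 and 3.23 without tumour array 1, a call lost without either mucosa array. Of 12 reference genes 1 rose, Gusb, a lysosomal enzyme, at 9.16 and 9.80 against 11.64 and 11.49 (2.09 ± 0.30, adjusted p = 0.00379); Tbp differed by 0.01 and Gapdh by 0.32. Of 4 sex-linked genes 0 were called.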
